A study of Homo sapiens with 10 samples.

Results

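Chromosomes 9 and 15 together held 251 of the 3227 intervals at which DNA was recovered with the long non-coding RNA ANRIL, once the surroundings of the ANRIL gene itself were left out. All listed peaks of chromosome 15 were taken (127), and those of chromosome 9 whose midpoint lay outside 21 to 23 Mb (124). This left out 7 peaks of band 9p21. The members were chosen by the position of peaks called in these data, on chromosomes picked because their number of peaks lies near what their length gives. That number, and the folds, scores and positions behind the list, are therefore a description and were not tested. The members made up 7.78% of the list (exact 95% interval 6.88 to 8.76%) on 7.81% of the genome. Positions are in hg19, counted from 1.

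The cells were HEK293, an established line derived from human embryonic kidney, and the assay was ChIRP-seq, in which biotinylated antisense oligos draw an RNA out of sonicated chromatin together with the DNA bound near it. ANRIL oligos were used as an even and an odd pool, each in replicates 1 and 2 (4 samples). Oligos against LacZ, a bacterial gene, were used in the same way as the control (4 samples), and 2 samples were input chromatin. The labels name no treatment and no engineered change to the genome, so all groups are of the same cells and differ in the oligos used, or in having none. The labels give 43 bp paired-end reads and 45 M reads per sample. They do not say whether the replicates were separate cultures. The single peak list merges pools and replicates, so no value per sample, no spread between replicates and no depth at a peak can be given. LacZ and input signals, and the identity of the cells by marker genes, were not analysed here. Densities are per Mb of hg19, and the copy number of the chromosomes in these cells was not analysed either.

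ANRIL is transcribed from 9p21 antisense to CDKN2B, next to the genes of the cell cycle inhibitors p15 and p16. It is known for binding Polycomb proteins, which silence those neighbours in cis, and it has also been linked to genes on other chromosomes, which is what a genome-wide ChIRP experiment asks about. Chromosome 15 is acrocentric, with a short arm of satellite DNA and ribosomal genes. Chromosome 9 carries a large block of heterochromatin beside its centromere. Much of both regions is unsequenced in hg19. No gene was assigned to any peak and no sequence is shown, because hg19 annotation and sequence were not used here.

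Nearly equal numbers of peaks (124 and 127) were laid out very differently on these chromosomes. Over its length, chromosome 9 outside 9p21 had 0.891 peaks per Mb, or 0.854 times the mean of the list (exact 95% interval 0.713 to 1.02 times), and chromosome 15 had 1.24 per Mb, or 1.19 times (0.994 to 1.41). Without chromosome X, which holds many of the listed peaks, chromosome 9 stood above the mean, at 1.06 times, and chromosome 15 at 1.47 times. In bins of 5 Mb, chromosome 9 had members in 23 of 29 bins, with 2 to 10 in each. Chromosome 15 had none in 9 of 21 bins, 1 in each of 4 bins, and 6 to 24 in each of the 8 bins from 65 Mb on. The densest 6 of the 29 bins of chromosome 9 held 53 of its 124 peaks (42.7%). The densest 5 of the 21 bins of chromosome 15 held 95 of 127 (74.8%). The variance of the counts over their mean, which is near 1 for peaks spread evenly at random, was 2.25 on chromosome 9 and 11.5 on chromosome 15. Bins were laid over the full length, with unsequenced DNA, where no peak can be called, included. Such bins can raise this ratio and the share of empty bins, by an amount that was not tested. Among the 19 chromosomes with 30 or more peaks, chromosome 15 was 3rd from the highest in this ratio and chromosome 9 was 10th. Within the 23 filled bins of chromosome 9 the ratio was 1.11, and within the 8 bins of chromosome 15 from 65 Mb on it was 2.43. Both of these subsets were chosen after the counts were seen.

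**Figure D1:**
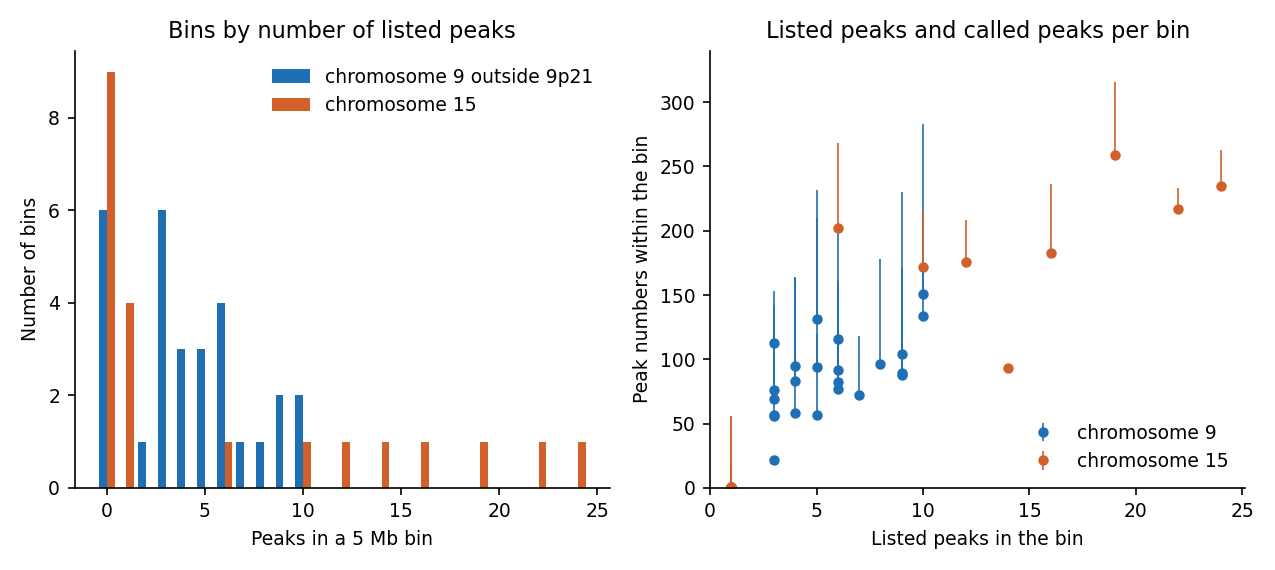
The left panel counts the 5 Mb bins (y axis) that hold a given number of peaks (x axis) on chromosome 9 outside 9p21 (blue) and chromosome 15 (orange). The bins of chromosome 9 lie between 0 and 10 peaks, while those of chromosome 15 split into 13 bins with 0 or 1 peak and 8 with 6 to 24. The right panel sets, for each bin with a listed peak, the number of peak numbers that fall in the bin (point, lower limit; line, up to the upper limit where it is known) against its listed peaks, including those of 9p21.

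On chromosome 9 a single long stretch without peaks parted the members into 40 on one side and 84 on the other. It ran for 33.1 Mb from 38191350 to 71326418. Its last peak before was at 38190912 to 38191349 (fold 4.13, score 31) and the peak after it at 71326419 to 71326656 (fold 3.88, score 25). No other stretch of the chromosome without peaks was longer than 3.40 Mb. Density was nearly equal on both sides, at 1.14 members per Mb before the stretch (the 2 Mb of 9p21 left out) and 1.21 after it. The median fold, the authors' ratio of ANRIL signal to the level expected at the site, was 3.64 before (95% order-statistic interval over peaks 3.49 to 3.71) and 3.49 after (3.41 to 3.61), and these intervals overlap. The median score, 10 times the −log10 of the deposited q, was 20 before and 19 after.

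On chromosome 15 the peaks came in a step. No peak lay in the first 22.3 Mb, and the stretch from there to 64 Mb held 3, at 22304401 to 22304747 (fold 3.93, score 30), 31831351 to 31831619 (fold 3.50, score 18) and 39793632 to 39793931 (fold 3.57, score 20). A stretch of 24.4 Mb without peaks followed, from 39793932 to 64183737. The remaining 124 peaks, 64183738 to 64184132 being the nearest to that stretch (fold 4.13, score 29), lay in the last 38.1 Mb at 3.26 per Mb. That is 2.86 times the density of chromosome 9 before its long stretch and 2.68 times that after it. How much of each peak-free stretch is unsequenced in hg19 was not tested.

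The step on chromosome 15 was already there among the peaks called before filtering. Peak names carry numbers that run in order along the genome. Numbers skipped between listed peaks show how many peaks of the numbered call set were not retained. Which replicate that set came from is not stated. The title of the list names an intersection of replicates, a score filter and blacklisted regions. Which of these removed a given peak is unknown, so each retained share mixes them. From the first to the third peak of chromosome 15 the names spanned 22 numbers, or 1.26 per Mb. In the long stretch after them 43 numbers were skipped (1.76 per Mb). From there to the last peak the names spanned 1709 numbers, or 44.9 per Mb. On chromosome 9 they spanned 28.7 per Mb before its peak-free stretch and 25.2 per Mb after it, and within that stretch 25 numbers were skipped (0.754 per Mb). The dense part of chromosome 15 thus had 1.56 and 1.78 times the called peaks per Mb of these sides of chromosome 9. With 9p21 included, as it is among the called peaks, chromosome 9 had 47 listed peaks before the stretch, and the same ratios for listed peaks were 2.58 and 2.68.

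More of the called peaks were retained on chromosome 15. There, 127 of at least 1774 called peaks stood in the list (at most 7.16%, exact 95% interval 6.003 to 8.46%), against 131 of at least 2839 on chromosome 9 with 9p21 included (at most 4.61%, 3.87 to 5.45%). Over the whole list the share was 5.68%. Of the 19 chromosomes with 30 or more peaks, 15 was 3rd and 9 was 14th from the highest, in a range from 3.55% on chromosome 18 to 10.0% on chromosome 19. The intervals cover the counting of peaks only, and the difference was not tested.

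Retention also varied along chromosome 15. From 65 to 70 Mb, 22 of at least 217 called peaks were listed (10.1%, exact interval 6.46 to 14.95%), and from 70 to 75 Mb 24 of at least 235 (10.2%, 6.65 to 14.8%). From 85 to 90 Mb there were about as many called peaks, at least 202, but 6 were listed (2.97%, 1.10 to 6.35%). In the last bin, which is not a full 5 Mb, 14 of at least 93 were listed (15.1%, 8.48 to 23.97%). The sparse bin and the dense bins before it therefore differed little in called peaks and much in listed ones. All these shares and intervals use the lower limit of called peaks, so each share is the most it can be. The upper limit was 268 from 85 to 90 Mb and is unknown for the last bin. The 6 peaks from 85 to 90 Mb had the highest median score (28) and median fold (3.99) of the 8 bins. Those from 70 to 75 Mb had medians of 24 and 3.63, and those of the last bin 18.5 and 3.12.

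On chromosome 9 the most filled bins were not those with the highest values. The bins from 25 to 30 Mb and from 135 to 140 Mb held 10 peaks each. From 135 to 140 Mb, 8 of the 10 had scores of 16 to 18, the median score was 17 and the median fold 3.24. From 25 to 30 Mb the medians were 19.5 and 3.44. From 85 to 90 Mb, 6 peaks had a median score of 28 and a median fold of 4.01, and from 0 to 5 Mb 3 peaks had 34 and 4.43. Other bins did not keep to this order. From 70 to 75 Mb, 9 peaks had medians of 24 and 3.71, and from 140 Mb on 3 peaks had 17 and 3.30. Bins with so few peaks give imprecise medians. Between 20 and 25 Mb, where the 9p21 window takes up part of the bin, there were 2 members. These were the last before the window, the nearer at 20252245 to 20252493 (fold 3.16, score 17). The outermost peaks left out were at 21994700 to 21995078 (fold 4.48, score 37) and 22616312 to 22616677 (fold 3.52, score 21), and the next member followed at 25215547 to 25215966 (fold 3.91, score 29).

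Neighbouring peaks lay much closer on chromosome 15, where 124 of the 127 peaks lay in the last 38.1 Mb at 3.26 per Mb. The median distance from the end of a peak to the start of the next was 175 kb there (95% interval 120 to 229 kb, 126 pairs) and 592 kb on chromosome 9 (418 to 725 kb, 122 pairs), against 267 kb over the list. The middle 50% of distances ran from 48.5 to 447 kb on chromosome 15 and from 275 to 1229 kb on chromosome 9. At most 100 kb parted 46 of 126 neighbours on chromosome 15 (36.5%) and 13 of 122 on chromosome 9 (10.7%), against 27.97% over the list. At most 10 kb parted 8 pairs on chromosome 15 (6.35%) and 2 on chromosome 9 (1.64%), against 4.06% over the list. Of the 19 chromosomes with 30 or more peaks, 15 had the 3rd shortest median distance. It was 6th in peaks per Mb, a density taken over its full length, peak-free stretches included.

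**Figure D2:**
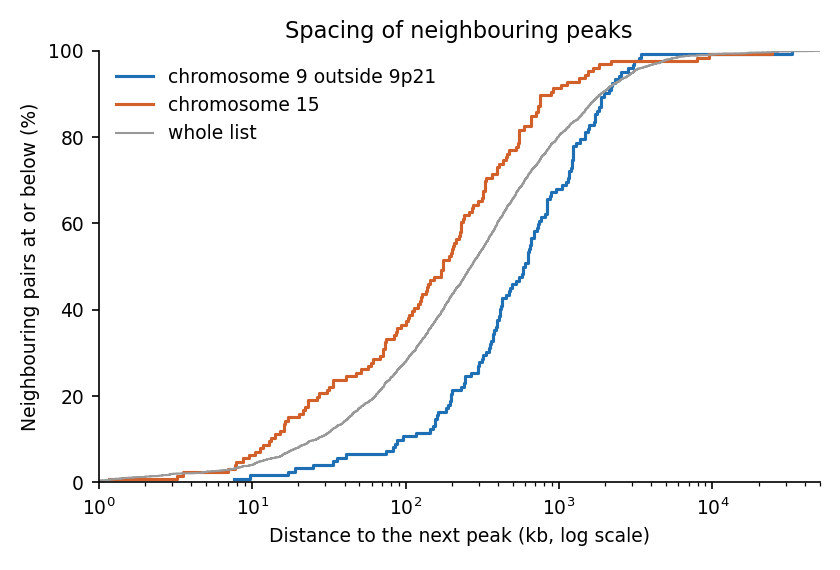
Cumulative share of neighbouring pairs of peaks (y axis, percent) by the distance between them (x axis, kb, log scale) for chromosome 9 outside 9p21 (blue), chromosome 15 (orange) and the whole list (grey). The curve of chromosome 15 lies to the left of the list and that of chromosome 9 to the right, with medians of 175, 267 and 592 kb.

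The closest pair of chromosome 15 was at 66189087 to 66189536 (score 16, fold 3.14) and 66190699 to 66191014 (score 27, fold 3.92), 1162 bp apart. The closest of chromosome 9 was at 71642146 to 71642683 (score 24, fold 3.69) and 71650256 to 71650533 (score 28, fold 3.93), 7572 bp apart. Both members of each pair carried consecutive numbers, so no peak of the numbered call set had been removed between them. Whether a peak was called between them in another set is unknown. Such consecutive numbers joined 12 of 126 neighbouring pairs on chromosome 15 (9.52%), at a median distance of 8.67 kb, and 3 of 122 on chromosome 9 (2.46%). Their share over the list was not computed. None of the 251 members was one of the pieces into which the intersection of replicates had split some called peaks of the list. Such pieces were rare, as the 3227 intervals carried 3209 distinct peak names.

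Local clusters were runs of 3 or more peaks with gaps of at most 100 kb. With a fixed limit, denser peaks form more clusters, so the share in clusters and the spacing restate in part the density given above. Chromosome 15 had 10 of them with 42 peaks (33.1% of its peaks, exact 95% interval 24.98 to 41.97%). Chromosome 9 outside 9p21 had 1, with 3 peaks (2.42%, 0.502 to 6.91%). The share was 22.9% over the list, from 0% on chromosomes such as 3 to 48.3% on chromosome 19, and chromosome 15 was 3rd of the 19. Of the 10 clusters, 8 held 3 peaks. The shortest, 28.9 kb from 91950366 to 91979220, held 3 peaks with consecutive numbers and a median fold of 3.26. The cluster of chromosome 9, from 25359519 to 25531481, had peaks of fold 3.46, 3.70 and 3.41 and scores of 17, 22 and 19. On chromosome 15 the median fold was 3.31 inside clusters (95% interval 3.21 to 3.52) and 3.51 outside (3.39 to 3.71), and these intervals overlap.

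A cluster of 7 peaks on chromosome 15 ran over 285 kb, from 72310924 to 72595467, with 18 called peaks in its span. In order of position its folds were 3.66, 3.92, 3.19, 4.08, 4.26, 3.59 and 3.66, and its scores were 24, 25, 16, 33, 35, 35 and 23. All but 1 of these peaks stood above the medians of the chromosome (fold 3.49, score 20), and the exception had the lowest score in the list. The peaks at 72529691 to 72529962 and 72533494 to 72533771, 3531 bp apart, had the same score of 35 and nearly the same width (272 and 278 bp), but folds of 4.26 and 3.59. The score is taken from q and not from the fold, so the same score need not go with the same fold.

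The largest cluster was at the end of chromosome 15, with 11 peaks over 329 kb from 101938999 to 102268070 and 40 called peaks in its span. In order of position its folds were 4.11, 3.99, 3.21, 2.94, 2.57, 2.94, 2.86, 2.91, 3.19, 2.78 and 3.38, and its scores were 28, 29, 18, 16, 17, 20, 18, 19, 20, 16 and 36. The first pair and the last peak stood highest in score, and the lowest folds lay between them. All 6 peaks of chromosome 15 with a fold under 3 were in this cluster (4.72% of the chromosome's peaks, where 6.51% of the whole list had such a fold), and none of the other 116 had one. Its median width was 656 bp (95% interval 318 to 1360 bp), against 368 bp (331 to 416 bp) for the rest of the chromosome, and these intervals overlap. At scores of 16 to 18, its 5 peaks had a median fold of 2.86 (lowest to highest, 2.57 to 3.21). The 43 others had one of 3.21 (lowest to highest, 3.03 to 3.50). It held the widest peak of the chromosome, 2524 bp from 102138203 to 102140726 (fold 2.86, score 18), and the peaks of lowest fold, at 102048516 to 102049152 (2.57) and 102250052 to 102250737 (2.78). Without this cluster, 26.7% of the remaining peaks of chromosome 15 were in clusters, and its median fold was 3.49 as with it.

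**Figure D3:**
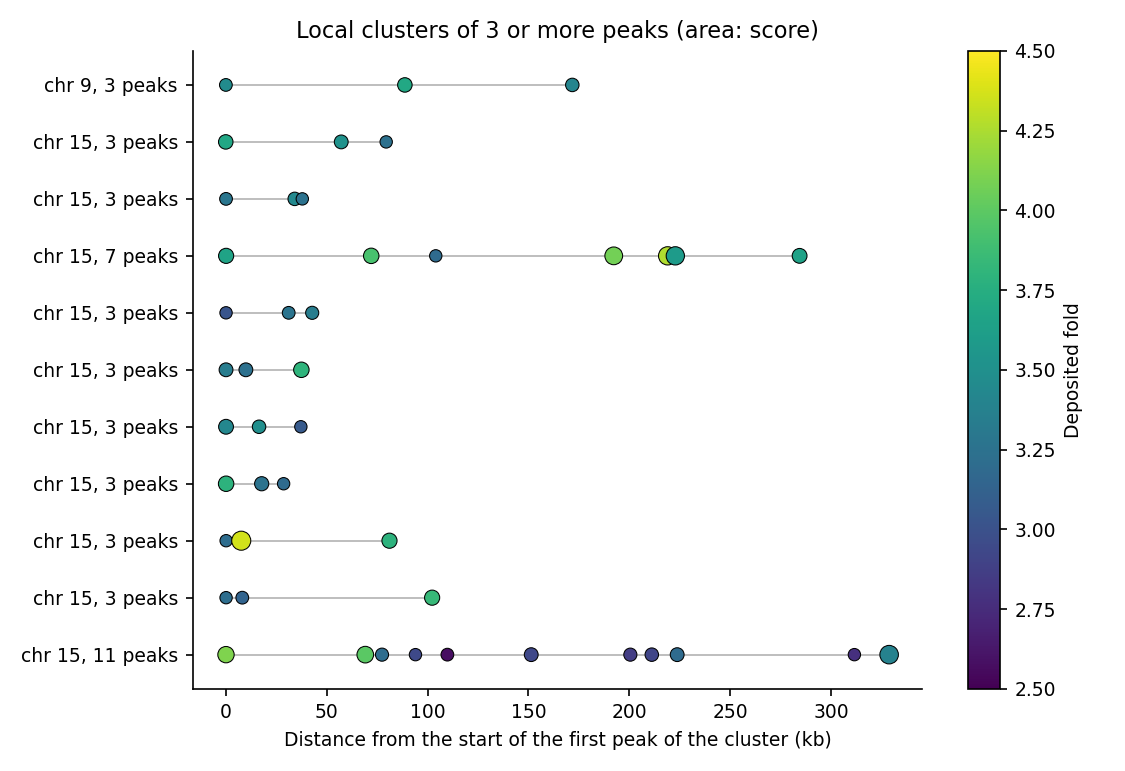
Each row is a local cluster of chromosome 9 outside 9p21 or chromosome 15, in order of position, and each point a peak at its distance from the start of the cluster (x axis, kb). Colour gives the deposited fold and area is proportional to the score. The clusters of 7 and 11 peaks are the longest, at 285 and 329 kb, and the folds under 3 are all in the lowest row.

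The median fold on both chromosomes lay near that of the list, and the median score was slightly below it. The median fold was 3.52 on chromosome 9 (95% interval 3.46 to 3.64) and 3.49 on chromosome 15 (3.37 to 3.59), against 3.48 over the list, and the range was 2.77 to 5.94 and 2.57 to 5.33. Median scores were 19 (18 to 21) and 20 (19 to 23), against 21. That of chromosome 9 was, with 1 other chromosome, the lowest of the 19 with 30 or more peaks, whose highest was 23. A fold of 4 or more was reached by 19 of 124 peaks on chromosome 9 (15.3%) and by 20 of 127 on chromosome 15 (15.7%), where 15.5% of the list reached it. A score of 30 or more was reached by 17 (13.7%) and 21 (16.5%), against 17.4% of the list. The deposited q was 0.01 or less for 60 peaks of chromosome 9 (48.4%, exact 95% interval 39.3 to 57.5%) and 71 of chromosome 15 (55.9%, 46.8 to 64.7%), against 57.5% of the list. The lowest listed score, 16, was held by 21 members on chromosome 9 (16.9%) and 24 on chromosome 15 (18.9%), where 14.3% of the list held it.

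Within ranges of score the median fold was higher on chromosome 9, by a small amount at scores up to 34. Among peaks of score 16 to 18, the median fold was 3.31 on chromosome 9 (95% interval 3.26 to 3.37, 52 peaks) and 3.21 on chromosome 15 (3.14 to 3.25, 48 peaks), with 3.23 over the list. The order was the same at scores of 19 to 24, with 3.63 (3.53 to 3.69) and 3.49 (3.43 to 3.59), where the intervals overlap. At a score of exactly 16 the medians nearly met, at 3.21 (21 peaks) and 3.19 (24 peaks), and this score made up more of the range of 16 to 18 on chromosome 15. At scores of 25 to 34 the medians were 3.97 (3.88 to 4.11) and 3.94 (3.83 to 4.04). In the open range of 35 or more they lay further apart, at 4.74 (4.31 to 5.94, 8 peaks) and 4.36 (3.59 to 5.07, 9 peaks), with overlapping intervals. The difference was not tested, because peaks share their libraries and are no replicates. Of the 19 chromosomes, 9 was 10th and 15 was 17th from the highest in fold at scores of 16 to 18. Spearman's rho of fold with score was 0.93 over the 124 peaks of chromosome 9 and 0.88 over the 127 of chromosome 15, and both values of a peak come from the same libraries.

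**Figure D4:**
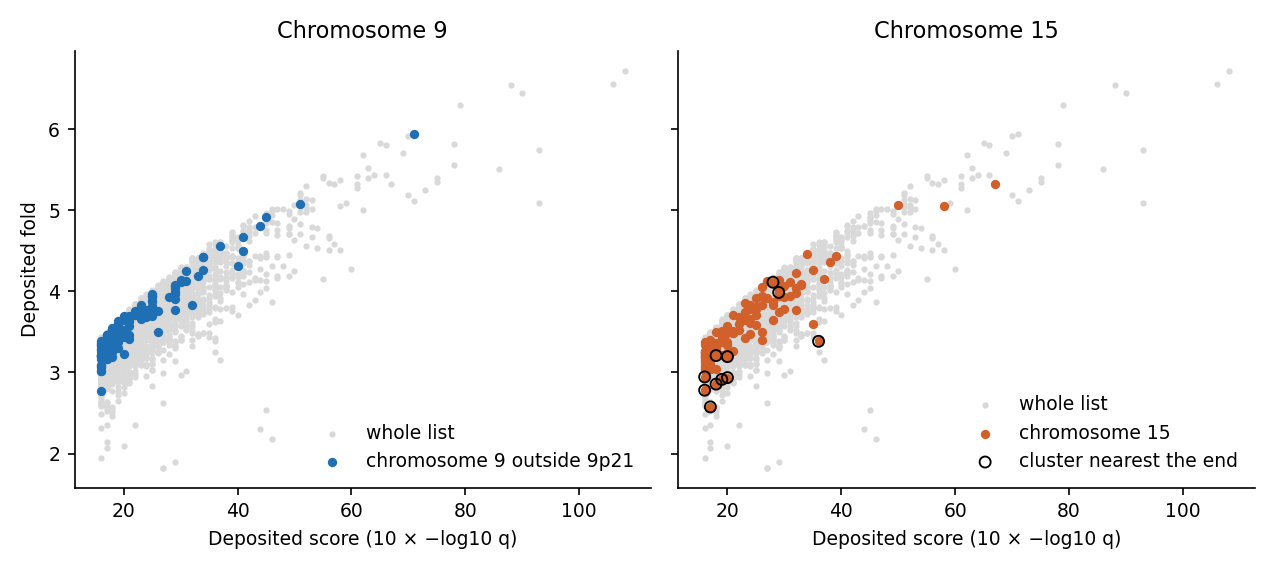
Deposited fold (y axis) against deposited score (x axis, 10 times −log10 q) for the peaks of chromosome 9 outside 9p21 (blue, left) and chromosome 15 (orange, right) over all listed peaks (grey). At scores of 16 to 18 the median fold is 3.31 on chromosome 9 and 3.21 on chromosome 15. The circled peaks of the cluster nearest the end of chromosome 15 include its lowest folds, down to 2.57.

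The highest score among the members was 71, at 119369436 to 119369911 on chromosome 9, which also had the highest fold (5.94, deposited q 7.78e-08, width 476 bp). The next on this chromosome was at 34574749 to 34575093, with a score of 51 and a fold of 5.08. Scores of 45, 44 and 41 followed at 85969726 to 85969970 (fold 4.91), 2225964 to 2226534 (fold 4.81) and 83590570 to 83590894 (fold 4.67). These 5 peaks lay in 5 different bins of 5 Mb, and none was in a local cluster. The lowest folds of chromosome 9 were 2.77, at 134760698 to 134761053, and 3.01, at 126524413 to 126524674, both with a score of 16.

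On chromosome 15 the highest score was 67, at 66589111 to 66589510, with a fold of 5.33 and a deposited q of 1.79e-07. A peak of score 39 lay 70.8 kb before it, at 66518178 to 66518289 (fold 4.44, width 112 bp), so the 1st and the 4th in score were neighbours. The others of the top 5 were at 77117534 to 77118167 (score 58, fold 5.05), at 88501174 to 88501690 (score 50, fold 5.07) and at 96752493 to 96753110 (score 38, fold 4.36). Of these 5 peaks, that at 96752493 was in a local cluster, of 3 peaks.

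Peaks were somewhat wider on chromosome 15. The median width was 391 bp (95% interval 336 to 422 bp) there and 328 bp (291 to 368 bp) on chromosome 9, against 346 bp over the list, and the intervals overlap. They covered 60.3 and 47.1 kb in all. A width of 1000 bp or more was reached by 9 peaks of chromosome 15 (7.09%) and 4 of chromosome 9 (3.23%), where 5.98% of the list was as wide. After the peak of 2524 bp, the widest of chromosome 15 were at 89649433 to 89650958 (1526 bp, fold 4.04, score 32) and 98435240 to 98436717 (1478 bp, fold 3.14, score 16). The widest of chromosome 9 were at 138793798 to 138795197 (1400 bp, fold 3.83, score 32), at 140577280 to 140578415 (1136 bp, fold 3.37, score 17) and at 76954924 to 76956023 (1100 bp, fold 3.56, score 19).

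On chromosome 15, 4 peaks were under 100 bp (3.15%, exact 95% interval 0.865 to 7.87%), where 2.42% of the list was as narrow. Those of 20, 32 and 51 bp were at 92831995 to 92832014 (fold 3.34), 91704667 to 91704698 (fold 3.60) and 73225772 to 73225822 (fold 3.28). No peak of chromosome 9 was under 121 bp. A width is that of the interval left by the intersection of both replicates, so a very narrow one is an overlap of called peaks and not the length of DNA recovered, while its fold and score may belong to a whole called peak. Width hardly went with fold, with a Spearman's rho across peaks of −0.015 on chromosome 9 and 0.024 on chromosome 15. At scores of 16 to 18, 19 to 24 and 25 to 34, the median width on chromosome 15 was 357 bp (313 to 421 bp), 329 bp (268 to 422 bp) and 482 bp (348 to 623 bp). At scores of 35 or more it was 517 bp (272 to 697 bp, 9 peaks). All these intervals overlap, but the medians were larger at scores of 25 and above. Over the same ranges the medians were 320, 313, 338 and 336.5 bp on chromosome 9. Over the list they were 322, 329, 378 and 439.5 bp.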

How the data were processed

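The deposited peak list was made by the authors with Bowtie2, MACS2, bedtools and deepTools on hg19, per the submitters' processing notes; their versions and settings are not stated there. Per the labels' design text, even and odd samples were used together, and the names in the list set ANRIL against LacZ. The deposited score was 10 times the deposited −log10 q rounded down in all 3227 rows. The deposited fold is a ratio, and −log10 p and −log10 q stand beside it, as read from the values and the column order of MACS2. Which replicate a value or a peak number comes from is not stated, and depth at a peak is unknown. The title of the list names a score filter and blacklisted regions beside the intersection of replicates. The lowest listed score was 16.

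Counts per bin of 5 Mb, distances, local clusters and medians were computed with Python 3.11.15, numpy 2.4.6, pandas 2.3.3 and scipy 1.17.1, and drawn with matplotlib 3.10.9. Full hg19 chromosome lengths, assembly gaps included, came from general knowledge of the build. Intervals are exact binomial for shares and from order statistics for medians. They cover the spread over peaks only and take peaks as independent. No test over peaks was made. On 200 simulated chromosomes, 100% of planted clusters were found, and 95% of the intervals held the true median. These runs checked the code only. Whether either figure carries over to the listed peaks, with their spacing and shared libraries, was not tested. The members and all definitions were chosen with earlier results of these data known.

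The peaks named on each chromosome were the 5 of highest score, the 3 widest, those of highest (3) and lowest (2) fold, clusters of 5 or more peaks, and the neighbours of 9p21 and of the widest peak-free stretch. Other peaks, pairs, bins and clusters of 3 were named after their values were seen. Assembly gaps, genes and sequence of the peaks were not analysed, as hg19 annotation was not used here. Alternatives were other score filters, bins, gaps, merging distances and 9p21 windows.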

Additional observations from a re-analysis of the deposited data

How the results depend on the processing

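Of 85 values recomputed for 19 results, 57 stayed inside the 95% interval of the value reported and 28 moved out of it. Some of the 57 could not move. No member shared a peak name, had a fold under 2.5 or lay within 1 kb of another member. Those settings therefore returned the same spacing, cluster shares and medians. Bins from the first to the last peak of chromosome 9 were all its 29 bins. The count of 57 is thus no measure of robustness. Scores of 30 or more gave 6.79% of the list on both chromosomes, 0.675 times the mean density on chromosome 9, 55.2% of its bins empty, 58.8% of its peaks in the densest 6 bins (85.7% in the densest 5 on chromosome 15), median distances of 5339 kb (chromosome 9) and 1074 kb (15), and a median width of 517 bp on chromosome 15. Scores at or above the list median gave distances of 1468 and 331 kb and median folds of 3.88 and 3.84. Median folds were 3.31 and 3.21 at scores of 16 to 18, and 3.21 and 3.19 at a score of 16. A stricter filter leaves fewer peaks by construction, and fold rises with score; the cause of the other moves was not tested. Without chromosome X the share was 10.1%, and density 1.06 times the mean on chromosome 9, from below it to above it, and 1.47 times on 15. From its first to its last peak, chromosome 15 had 1.52 times the mean. The share in clusters was 0% on chromosome 9 and 20.5% on 15 with gaps up to 50 kb, 55.1% on 15 with gaps up to 200 kb, 20.2% and 55.1% for clusters of 2 or more peaks, 0% and 14.2% for 4 or more, and 22.7% on 15 after merging peaks within 10 kb. In each of these the share on chromosome 15 was the higher. Density on chromosome 15 stayed above the mean in all 4 alternatives run. The 9 alternatives with bins from the first to the last peak, a score of 16, or the end cluster of chromosome 15 left out were chosen after seeing the data.

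Lengths without assembly gaps, annotation and sequence were not run. Leaving out a replicate was not possible either. No paired analysis was possible because replicates 1 and 2 were intersected into a single list. Few peaks in a bin cannot be told apart from low sensitivity there, as depth is not in the list.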
